A study of Homo sapiens with 179 samples.

Results

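The libraries described here are Lane1_38869 to Lane1_38874 and Lane4_38869 to Lane4_38874, whose 6 library numbers appear in each of 4 sequencing lanes. They are 12 of the 179 libraries of the series, 6 in Lane 1 and 6 in Lane 4, and were chosen by number and lane, not by any measured value. The same 6 numbers in Lanes 2 and 3, 12 further libraries, serve as steps between. All of them hold RNA of the established line H1, human embryonic stem cells grown on Matrigel in E8, a defined medium without feeder cells, with no other treatment and no difference in genotype named. Every library was made by LM-Seq, which captures polyadenylated RNA on oligo-dT beads, fragments it with heat and copies it from random hexamers, and was read on a HiSeq2500. The lanes differ in how many samples were pooled: 95 in Lane 1, 48 in Lane 2, 24 in Lane 3 and 6 in Lane 4. Nothing in the labels tells whether libraries of the same number in different lanes are a single library read again, or whether the 6 numbers stand for 6 cultures. The spread that every p-value below measures is that between libraries and may be technical.

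A pluripotent cell keeps most regulators of later lineages silent or nearly so. These regulators are transcription factors that direct the formation of neural, mesodermal or endodermal tissue when their genes are switched on. Receptors for hormones and transmitters, ion channels and adhesion proteins are often transcribed at low levels in the same cells, whereas olfactory receptors, keratins of hair and defensins are typical of a few specialised tissues. A gene with few transcripts enters a library as a handful of molecules, and whether it is seen at all then depends on how many are read.

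All 9 pluripotency markers examined, among them POU5F1 and NANOG, were counted in every library of both lanes, and their summed level was 11832 to 12736 TPM in Lane 1 and 11929 to 12709 TPM in Lane 4. TPM is a level scaled by transcript length and library total, so it can be compared between genes. Some markers of other cell types were also counted, and single genes made up most of several sums. Summed levels in Lane 4 were 189.4 to 240.7 TPM over 6 neuroectoderm markers, 82.4 to 92.96 over 6 mesoderm markers (MESP1 and HAND1 at 0), 0.43 to 1.57 over 6 endoderm markers (SOX17 and HNF4A at 0), 381 to 416.6 over 7 fibroblast markers (LUM and DCN at 0), 0.66 to 2.95 over 5 blood markers (HBB at 0) and 8.29 to 16.73 over 5 trophoblast markers (CGB at 0). Of the first of these sums NES, a filament protein also made by stem cells, gave 188.3 to 239 TPM, and of the next the receptor KDR gave 81.81 to 90.91 TPM. The other 5 genes of these 2 lists reached at most 0.9 and 1.58 TPM in any Lane 4 library. Of the fibroblast sum THY1 gave 233.9 to 269.3 TPM, COL1A1 72.99 to 83.48 and COL1A2 56.71 to 69.28, and of the trophoblast sum KRT7 gave 7.79 to 16.6 TPM. In Lane 1 the same sums were 165.5 to 240.8, 79.87 to 93.08, 0 to 2.33, 360 to 417, 0 to 7.28 and 6.02 to 16.27 TPM, so the ranges of the lanes overlapped for every list. Their part in the results below was not tested.

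Lane 4 held more counts than any other lane and brought further genes into view in each of the 6 numbers. Libraries of Lane 1 held 1226961 to 1291213 expected counts and those of Lane 4 held 15780078 to 16583048, and the pooled totals stood in a ratio of 12.93. Lane 2 had 2380335 to 2533736 and Lane 3 had 4616800 to 4774823. A single count was worth 0.808 TPM in Lane 1 and 0.0667 TPM in Lane 4, each the mean over 6 libraries of the median over genes with 1 count, so a gene below those levels could be represented by less than 1 count. With a gene taken as counted at an expected count of at least 1, there were 13224 ± 47.6 genes counted in Lane 1, 13857 ± 62.8 in Lane 2, 14324 ± 66.2 in Lane 3 and 14811 ± 98.1 in Lane 4 (SD, n = 6 each), out of 19084. From Lane 1 to Lane 4 the gain within a number was 1587 ± 71.5 genes, higher in 6 of 6 numbers (two-sided exact sign-flip permutation p = 0.03125, the smallest that 6 pairs allow). When Lane 4 was rarefied to the total of Lane 1, on rounded counts, the gain was 37.1 ± 37.7 genes, positive in 5 of 6 numbers (exact permutation p = 0.09375).

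The new genes were weakly counted even in Lane 4. Per number, 1566 ± 70.8 genes were at 0 in Lane 1 and counted in Lane 4, and 20.8 ± 4.92 went the other way. Over all genes and numbers this is 8.21% of 114504 combinations of gene and number, the background against which the shares of gene classes below are set. The median Lane 4 count of the new genes was 6, with 39.7% ± 1.35 below 5 counts and 30.1% ± 1.33 at 10 or more. Of the genes new in one number, 43.2% ± 2.45 were also counted in Lane 4 of all 5 other numbers and 5.53% ± 0.465 in none of them.

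**Figure D1:**
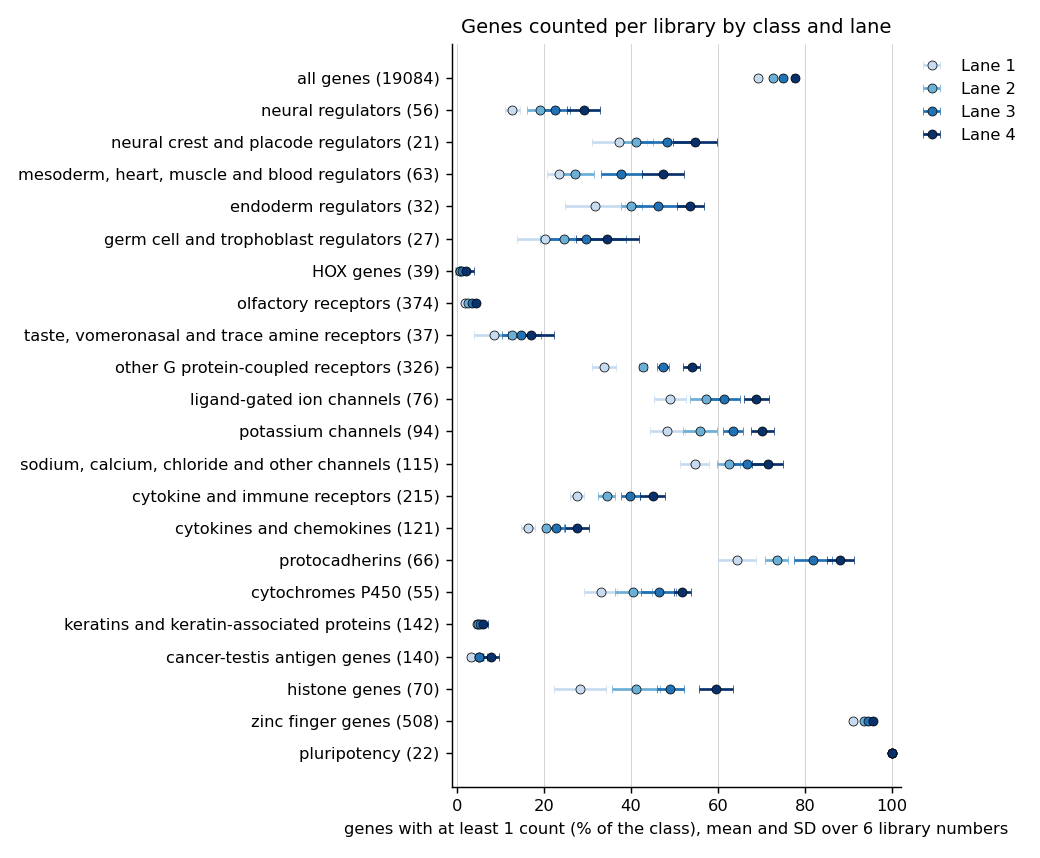
Share of the genes of a class with at least 1 count per library (x axis, % of the class, number of genes in parentheses) in Lanes 1 to 4. Points are means and bars SDs over the 6 library numbers. HOX genes, olfactory receptors and keratins stay below 10% in every lane, the pluripotency list stands at 100% in every lane, and histone genes move furthest from Lane 1 to Lane 4.

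Lineage regulators were among the classes with a large share of new genes, though most of their members stayed at 0 in any single Lane 1 library. Of 199 regulators in 5 lists, 45.5 ± 2.81 were counted per library in Lane 1 and 84.2 ± 5.08 in Lane 4 (SD, n = 6). Per number, 38.7 ± 2.58 of them (19.4%) were new in Lane 4. In Lane 1, 53.8% of the 199 were at 0 in all 6 libraries, and 44 of these were counted in at least 1 library of Lane 4. That is 22.1% of the regulators, where 5.66% of all genes (1080 of 19084) met the same rule. None of the 199 was at 0 in all of Lane 1 and counted in all 6 libraries of Lane 4, a pattern that 21 genes of the whole table showed (0.11%), and 62 were at 0 in both lanes throughout.

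Among neural regulators, 17 of 56 appeared in this way, and the counts were small and scattered over the numbers. SOX1, an early neuroectoderm factor, had Lane 4 counts of 0, 2.01, 1, 0, 1.01 and 5.02 in Lane4_38869 to Lane4_38874, the order used for all values that follow. PAX6, a regulator of eye and brain, had a single count in Lane 1, in Lane1_38869, and 9, 3, 0, 4, 0 and 0 in Lane 4. For these genes Lane 4 raised the count in some numbers and left others at 0. OLIG2, a factor of motor neuron and oligodendrocyte precursors, likewise had 9, 0, 0, 0, 5 and 10 counts in Lane 4, where Lane 1 had 2, 0, 0, 0, 1 and 1: the 3 numbers with counts were the same in both lanes. The lanes between departed from this, with 0, 0, 0, 0, 1 and 1 counts in Lane 2 and 6, 2, 0, 0, 4 and 4 in Lane 3. The proneural factor NEUROG2 was at 0 in all 24 libraries of the 4 lanes. A count of 0 over the 97687746 pooled counts of Lane 4 still allows 0.0307 CPM (counts scaled to the library total), against 0.397 CPM for the pooled counts of Lane 1, each from a floor of 3 counts that covers counting error only.

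The neural crest and placode list had 1 new gene of 21, PITX1, a homeobox factor of the pituitary and hindlimb, with 0, 0, 5, 1, 0 and 0 counts in Lane 4. SOX10, which specifies neural crest, was the only one of 24 preselected regulators counted in all 6 libraries of Lane 4, at 20, 11, 28, 13, 27 and 5 counts, after 2, 0, 0, 1, 3 and 0 in Lane 1. Its level was 0.93 ± 0.499 TPM in Lane 4 (SD, n = 6).

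Mesoderm, heart, muscle and blood regulators had 15 new genes of 63. WT1, a regulator of kidney and gonad development, had 7, 14, 6, 2, 0 and 2 counts in Lane 4, and EOMES, a T-box factor of the primitive streak, had 2, 2, 0, 8, 5 and 3. T, the brachyury gene, had 1, 0, 0, 0, 5 and 0. NKX2-5, a heart regulator, was counted in Lane4_38871 alone, with 5 counts, and GATA4, shared by heart and endoderm, in Lane4_38869 with 5 and in Lane4_38872 with 3. These genes were thus at 0 in 1 to 5 of the 6 libraries of the deepest lane. RUNX1, required for definitive blood formation, showed the split most clearly: Lane 4 held 13, 13, 0, 0, 0 and 4 counts, Lane 3 held 5, 4, 0, 0, 0 and 1, and Lane 2 held 4, 4, 0, 0, 0 and 0. TBX5, a regulator of heart and forelimb, had 11 counts in Lane4_38873 and 2 in Lane4_38870. Of the 6 numbers the same ones alone held its counts in Lane 3, with 2 and 1. HAND1, MYOD1 and GATA1, regulators of heart and trophoblast, of skeletal muscle and of red cells, were at 0 in all 24 libraries.

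Endoderm regulators had 6 new genes of 32. HHEX, an early endoderm homeobox factor, had 6, 4, 2, 3, 7 and 0 counts in Lane 4, and GATA6, a regulator of primitive endoderm, had 8 counts in Lane4_38874 and 0 in the other libraries of that lane. Within the 6 numbers the only counts of GATA6 in Lanes 2 and 3 also lay in Lane2_38874 and Lane3_38874. FOXA2, a pioneer factor of definitive endoderm, had 10, 0, 11, 11, 7 and 0 counts in Lane 4 and 2, 0, 3, 2, 3 and 0 in Lane 3, while Lane 1 held a single count. Both lanes thus put the same 2 numbers at 0. CDX2, of intestine and trophoblast, had 2, 7, 0, 0, 14 and 2 counts. SOX17, HNF4A and PDX1, regulators of endoderm, liver and pancreas, were at 0 in all 24 libraries. Among germ cell and trophoblast regulators 5 of 27 were new, with GCM1, a trophoblast factor, at 2.44, 1, 1.99, 8.74, 0 and 0 counts.

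**Figure D2:**
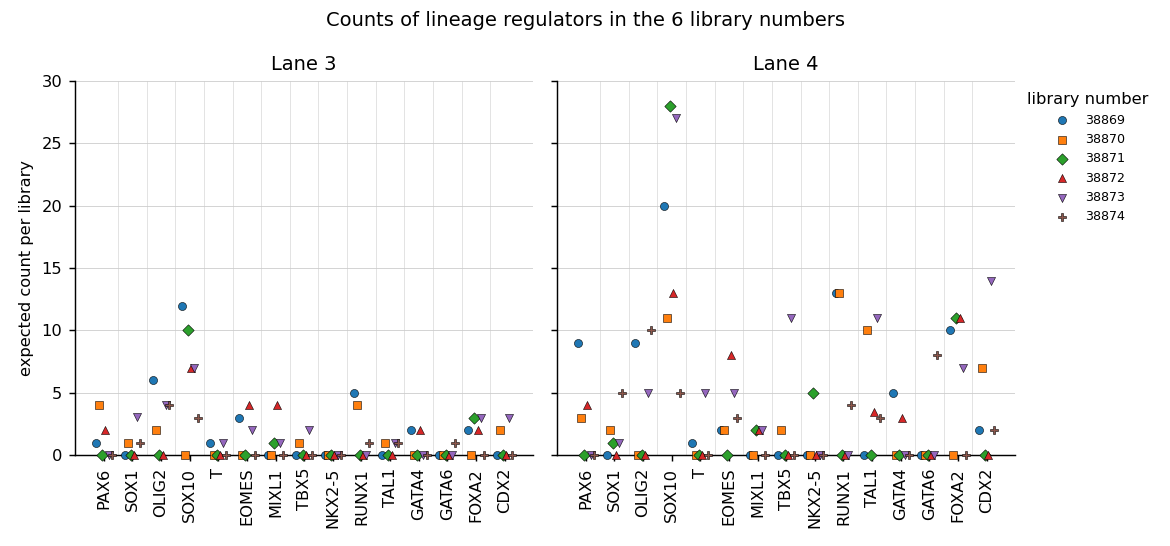
Expected count per library (y axis) of the 15 preselected lineage regulators with any count in Lane 4, in Lane 3 (left) and Lane 4 (right). Each point is 1 library and each colour and symbol 1 library number. The numbers with counts of RUNX1, FOXA2 or GATA4 in Lane 3 are those with the highest counts in Lane 4, and SOX10 alone is above 0 in all 6 libraries of Lane 4.

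Receptors coupled to G proteins split into a broad family that gained many members and sensory families that stayed mostly at 0. Of 326 receptors outside the sensory families, 110.5 ± 9.05 were counted per library in Lane 1 and 175.8 ± 6.4 in Lane 4, and 65.5 ± 6.44 (20.1%) were new per number. Of the 140 at 0 in all of Lane 1, 55 appeared in Lane 4. CCR6, a chemokine receptor of lymphocytes, was counted in 5 of 6 Lane 4 libraries, at 4.8, 12, 4.14, 0, 16 and 5.96 counts. It was also counted in 45 of the 89 other Lane 1 libraries. Of 374 olfactory receptors, 353 were at 0 in all of Lane 1. Only 14 of these appeared in Lane 4, and 8.5 ± 1.87 (2.27%) were new per number. OR2H2 was the foremost of them, with 3, 4, 3, 0, 6 and 0 counts. A few olfactory receptors needed no depth: OR2C3, named after its values were seen, stood at 9.11 ± 3.13 TPM in Lane 1 and 8.53 ± 1.83 TPM in Lane 4, the highest of the family there. OR2A1 and OR2A42, next in order at 7.78 ± 2.2 TPM, are near-identical copies with equal values in every library, so their reads cannot be told apart. Of 37 taste, vomeronasal and trace amine receptors, 6 of the 28 at 0 in Lane 1 appeared, with the bitter receptor TAS2R31 at 4, 0, 1, 0, 4 and 5 counts.

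In all 3 classes of ion channels more genes were counted per library in Lane 4 than in Lane 1. Ligand-gated channels, which open on binding a transmitter, went from 37.2 ± 2.79 to 52.3 ± 2.25 of 76 genes, potassium channels from 45.5 ± 3.73 to 66 ± 2.53 of 94, and sodium, calcium, chloride and other channels from 54.6% ± 3.27 to 71.5% ± 3.58 of the genes of their class. The new genes per number were 15 ± 3.74 (19.7%), 20.5 ± 3.02 (21.8%) and 19.5 ± 3.99 (17%). GRIN1, the obligatory subunit of NMDA receptors, had 4, 8, 4, 3, 0 and 4 counts in Lane 4. KCNK15, a two-pore-domain channel, had 8.03, 0, 1.01, 1.03, 11.1 and 0. Both were at 0 throughout Lane 1.

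Receptors and signals of the immune system differed from each other. Of 215 cytokine and immune receptors, 59.5 ± 3.39 were counted per library in Lane 1 and 96.8 ± 6.11 in Lane 4, 35.8 ± 3.82 of them (16.7%) new per number. CLEC4D, a C-type lectin of myeloid cells, was the 1 member at 0 in all of Lane 1 and counted in all of Lane 4, at 6, 4, 3, 3, 2 and 1 counts. Of the cytokines and chemokines, 68.6% (83 genes) were at 0 in all of Lane 1 and 7 of these appeared, TNFSF10, the death ligand TRAIL, at 4.97, 8.23, 8, 0, 0.52 and 2.1 counts. Defensins, antimicrobial peptides of epithelia and leukocytes, had 42 of 43 genes at 0 in all of Lane 1, and none of these reached a count in Lane 4. Keratins and keratin-associated proteins had 92.3% of their genes at 0 and 7 new, with KRT84, a hair keratin, at 5.04, 0, 4, 0, 0 and 0.

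Of the 39 HOX genes, which set position along the body axis, 37 were at 0 in all of Lane 1. Only 2 appeared, HOXD11 with 6 counts in Lane4_38871 and HOXD13, named because it completes this count, in 1 library. Cancer-testis antigen genes, normally restricted to the germ line, had 92.1% of 140 at 0 and 11 new. SSX2 was counted in all 6 Lane 4 libraries, at 4.5, 5, 2, 1.88, 1 and 2.05 counts, and has near-identical copies. Among cytochromes P450, 4 of the 22 at 0 in Lane 1 appeared, with the vitamin D hydroxylase CYP24A1 at 10, 5, 3, 5, 3 and 0 counts. Solute carriers, with 373 genes, had 25 new of 77 at 0, SLC9A4, a sodium-proton exchanger, at 2.25, 0, 0, 8.26, 13.4 and 1.01 counts.

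Classes that a dividing stem cell uses throughout were complete or nearly so in Lane 1. All 22 genes of the pluripotency list and all 76 mitochondrial ribosomal protein genes were counted in each of the 12 libraries. Of 87 cytosolic ribosomal protein genes, 84 were counted in every library of both lanes, and the 1 gene at 0 in all of Lane 1, RPL10L, a retrogene of testis, had 3.95 counts in Lane4_38871 alone. Of 39 proteasome subunits 36 were counted throughout, and PSMA8, a testis-specific subunit, had 0, 0, 5, 5, 0 and 3 counts in Lane 4 after 0 in Lane 1. Zinc finger genes had only 19 of 508 at 0 in all of Lane 1, of which 9 appeared. ZNF503, a regulator of the developing limb and brain, had 0, 9, 0, 0, 1 and 5 counts.

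Protocadherins, adhesion proteins of neurons, and histone genes had the largest shares of new genes per number among the classes of more than 20 genes, 24.5% and 29.8%. All 5 protocadherins at 0 in Lane 1 appeared, and PCDHB4 was counted in all 6 libraries at 13.7, 3.24, 5.53, 5.3, 4.4 and 6.63 counts. Of 70 histone genes, 19.8 ± 4.17 were counted per library in Lane 1 and 41.7 ± 2.73 in Lane 4. HIST1H2AM, an H2A histone, had 6, 13.4, 1.33, 8.06, 0 and 4.16 counts. Most histone mRNAs are short and lack a poly(A) tail. A single Lane 4 count of a histone gene between 1 and 10 TPM was worth a median of 0.354 TPM, against 0.0499 TPM over all genes of that level. Short histone and protocadherin members resemble each other, so the division of reads among them is uncertain.

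Genes of like level were then set side by side. The level used here is the mean TPM in the 18 Lane 3 libraries of other numbers, which enter no comparison. Between 0.1 and 1 TPM, 35.8% ± 1.79 of all 2709 genes were new per number, and so were 36% ± 2.92 of the 70 lineage regulators, 41.6% ± 5.77 of the G protein-coupled receptors, 40.1% ± 6.1 of 42 potassium channels, 37% ± 5.13 of 73 immune receptors and 35.7% ± 4.52 of the 14 olfactory receptors at that level. Over the classes with at least 10 genes there, the shares ran from 21.7% ± 13.3 of 10 cancer-testis antigen genes to 41.7% ± 13.8 of 30 protocadherins. Below 0.1 TPM the share was 6.6% ± 0.667 of 3791 genes. There it was 10.6% ± 3.27 of the regulators, 10.9% ± 3.14 of the G protein-coupled receptors, 0.567% ± 0.31 of 353 olfactory receptors, 1.12% ± 0.783 of the keratins, 0 of 42 defensins and 16.7% ± 5.79 of 26 ligand-gated channels, so the classes remained spread at this level. Of the olfactory receptors 94.4% lay below 0.1 TPM, of the regulators 53.8% and of all genes 19.9%. Histone genes had the highest share of new genes between 1 and 10 TPM, where 39.3% ± 9.22 of 31 were counted per library in Lane 1 and 37.1% ± 7.57 were new in Lane 4, against 90.9% ± 0.464 and 7.9% ± 0.434 of 4297 genes. Cytokines and chemokines followed with 27.4% ± 9.49 new of 14 genes and cytochromes P450 with 20.8% ± 11.5 of 12. These differences between classes were not tested.

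Among all genes, 3887 were at 0 in all 6 libraries of Lane 1. Of these 2782 were at 0 in all of Lane 4 as well, 1080 were counted in at least 1 Lane 4 library, and the remaining few had fractional values below 1. The new genes thinned out quickly with the number of libraries: 502 were counted in 1 library of Lane 4 (12.9% of the 3887), 256 in 2, 4.17% of the 3887 in 3, 83 genes in 4, 56 in 5 and 21 in 6. Scaling the summed Lane 4 count by the ratio of pooled totals gave less than 1 count over all 6 Lane 1 libraries for 800 of the 1080 and less than 3 for 1061. Libraries outside the comparison held most of these genes too. Of the 1080, 994 (92%) were counted in at least 1 of the 89 other Lane 1 libraries, in a median of 6 of them. In all 6 TruSeq libraries of the series, 621 of them (57.5%) were counted, against 15632 of all 19084 genes. Those 6 libraries carry the labels H1p16 and H1p43 and were made with another kit. There the 1080 genes had a median of 0.123 TPM. Of the 2782 genes at 0 in both lanes, 871 (31.3%) were counted in another Lane 1 library and 6.18% in all 6 TruSeq libraries.

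The models of 3 genes departed from that pattern because at least 10 counts were expected over Lane 1 and none was found. SERF1A, with 102.3 counts expected, was at 0 in all of Lane 1 and had 83.9, 83.9, 83.9, 312.7, 388.3 and 370.7 counts in Lane 4, the first 3 values being equal as deposited. Its near-identical copy SERF1B, brought in for this reason, had 25 to 33.1 counts per library in Lane 1 and 259.6, 247.3, 216.6, 0, 0 and 0.42 in Lane 4. The summed level of the pair was 63.4 ± 4.64 TPM in Lane 1 and 57 ± 7.03 TPM in Lane 4, so the pair was present in every library while the deposited split between its members moved. The read-through model FAM47E-STBD1 had 0 in Lane 1 and 56.7, 50.6, 48.0, 45.7, 58.3 and 40.4 counts in Lane 4, and was counted in 47 of the 89 other Lane 1 libraries. HSPE1-MOB4, another read-through model, had 210.3 counts in Lane4_38873 and 4.46 in Lane4_38874, with 19.6 counts in Lane3_38873 as its only value in Lanes 1 to 3.

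In edgeR's quasi-likelihood test over 12419 genes, without pairing by library number, 2 were called between Lane 4 and Lane 1 at an adjusted p below 0.05 (0.0161%). These were SERF1A and FAM47E-STBD1, both at an adjusted p = 0.0127. Against a floor of 3 counts over Lane 1 they were at least 34.1-fold and at least 7.72-fold higher in Lane 4, and since both share sequence with other genes these bounds are uncertain. An unadjusted p below 0.05 was reached by 1.25% of the genes tested, and the median log2 fold change was 0.00. With the library number as a block, which keeps the pairing, 13 genes were called (0.105%). Among the further genes, NCL, HNRNPU, L1TD1, SFPQ, PABPC1, HNRNPA2B1, NPM1 and NAP1L1 had log2 fold changes of only 0.01 to 0.037. CDK11B, the read-through model PHOSPHO2-KLHL23 and SMN2 had 0.359, 0.85 and 1.258. The block gave an edgeR adjusted p = 7.5e-12 for SERF1A and 3.72e-04 for FAM47E-STBD1. Leaving out numbers was not run with the block. In the fit without it, leaving out any 1 number moved the log2 fold changes little, to 9.66 to 10.07 and 7.71 to 7.81, but gave an adjusted p of 0.062 to 0.0996 for FAM47E-STBD1, and SERF1A kept its call only without Lane1_38870 and Lane4_38870 (adjusted p = 0.0286 in edgeR). No lineage regulator, receptor or channel was among the called genes. The filter on low counts kept 12419 of 19084 genes, so genes with few counts even in Lane 4 were left out. For such genes the test cannot show whether the lanes differ.

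A small set went the other way. At 0 in all 6 libraries of Lane 4 and counted in at least 1 of Lane 1 were 17 genes (0.0891%). TBC1D3B and TBC1D3, members of a family of near-identical copies, had 16.2 and 10.7 counts summed over Lane 1, and GSTT2B, which also has a close copy, had 0, 0, 1, 3, 3 and 0. PLA2G4B, with 4 counts in Lane1_38874, and AKR1C4, with 2 in Lane1_38870, followed. Several leading members of both directions were thus copies or read-through models, for which the division of reads is uncertain. Also among the 10 highest genes at 0 in all of Lane 1 were SPOCD1, PRSS27 and SLITRK2, whose names mark neither kind. They had 79, 47 and 44 counts summed over Lane 4. The part of read division in these counts was not tested.

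Whether a gene of Lane 4 was seen in Lane 1 followed its Lane 4 count. Of the genes with a Lane 4 count of 1, 12.7% ± 1.97 were counted in Lane 1 of the same number. The share was 24.3% ± 1.37 at 2 to 4 counts, 37.8% ± 1.57 at 5 to 9, 62.4% ± 1.55 at 10 to 19, 88% ± 0.952 at 20 to 49 and 98.7% ± 0.312 at 50 to 99. The ratio of totals alone would give 7.73%, 21.3%, 41.7%, 66.7%, 91.1% and 99.5%. The observed shares were higher than these below 5 counts and lower from 5 to 99, by at most 4.95 percentage points.

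**Figure D3:**
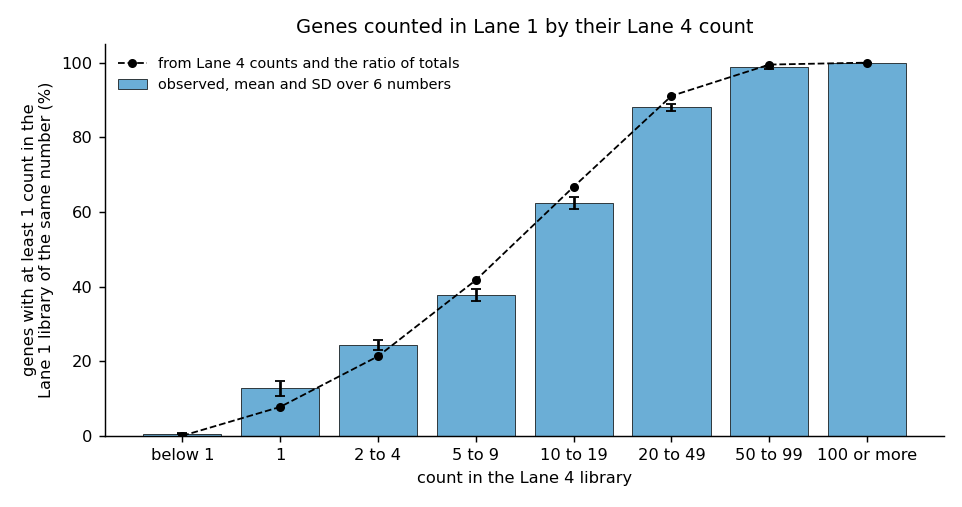
Share of genes with at least 1 count in the Lane 1 library of a number (y axis, %) by the count of the same gene in the Lane 4 library of that number (x axis). Bars are means and error bars SDs over 6 numbers, and the dashed line is the share that the Lane 4 counts and the ratio of totals give for counting alone. Detection passes 60% at 10 to 19 counts in Lane 4, and bars and line lie close throughout.

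The TPM of low genes repeated poorly between lanes of the same number, and the deeper lane repeated better at every level. Between 0.1 and 0.3 TPM, 8.39% ± 0.76 of 1220 genes lay within 2-fold of their Lane 4 value in Lane 1, 17.9% ± 0.586 in Lane 2 and 27% ± 1.07 in Lane 3, a value of 0 counting as outside. Between 0.3 and 1 TPM the shares were 29.95% ± 0.828, 43.9% ± 2.03 and 56.3% ± 1.86 of 1489 genes, and between 1 and 3 TPM 61.3% ± 1.28, 74.4% ± 0.405 and 83.6% ± 1.13 of 1667. From 3 TPM upward most genes repeated even in Lane 1, with 88.9% ± 0.672 between 3 and 10 TPM, 98.2% ± 0.3 between 10 and 30 and 99.8% ± 0.0432 above. Lane 3 exceeded Lane 1 in 6 of 6 numbers at each of the 6 levels, by 26.4 ± 1.53 percentage points between 0.3 and 1 TPM and by 0.144 ± 0.0412 at 30 TPM or more (exact permutation p = 0.03125 at each level, the smallest possible, and 0.03125 after adjustment over the 6). Values of 0 made up much of this: between 0.3 and 1 TPM, 51.7% ± 0.991 of genes were at 0 in Lane 1 and 14.7% ± 2.25 in Lane 4, and between 1 and 3 TPM 19.5% ± 1.27 and 2.49% ± 0.56. Step size also limits agreement, since a single Lane 1 count was typically worth 0.808 TPM, above the level of 0.1 to 0.3 TPM. Lane 3 held more counts than Lane 1, so the direction was largely fixed by depth and these p-values cannot show more than that.

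Regulators taken from the middle of each level differed in how their counts repeated. T and GATA2, a blood regulator, both near 0.17 TPM, were at 0 in all and in 5 of 6 Lane 1 libraries. ONECUT2, a liver and pancreas factor at a reference of 0.562 TPM, had 2, 5, 5, 1, 5 and 2 counts in Lane 1 and 70, 66, 75, 46, 50 and 25 in Lane 4, and its coefficient of variation (CV, SD over mean) over the numbers was 0.561 and 0.339 in TPM. IKZF3, a lymphoid factor of nearly the same reference level, had 1, 0, 0, 2, 0 and 0 counts in Lane 1 and 3, 0, 1, 0, 0 and 7 in Lane 4, so that Lane1_38872 held counts and Lane4_38872 none. The Lane 4 means were 0.128 ± 0.195 TPM for IKZF3 and 0.522 ± 0.177 TPM for ONECUT2 (SD, n = 6). The 2 genes thus shared a level in the reference libraries but not in Lane 4. There 1 count of IKZF3 was worth 0.07 TPM and 1 count of ONECUT2 0.00934 TPM. HNF4G, of gut and liver, had a CV of 0.282 in Lane 1 and 0.349 in Lane 4, and TDRD1, a germ cell protein, 0.4 and 0.343. SOX9, a regulator of cartilage and neural crest at 5.6 TPM, had 19, 16, 10, 14, 7 and 13 counts in Lane 1. In TPM these were 9.44, 7.84, 5.04, 7.21, 3.55 and 6.4, against 5.56, 5.14, 6.23, 5.79, 4.77 and 8.08 in Lane 4, and its CV was 0.317 and 0.197. TCF7, a WNT effector, went from 0.307 to 0.0858. Of the regulators named here, SOX9 alone reached 10 counts in more than 1 Lane 1 library.

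The median CV over the 6 numbers fell with level and with depth. Genes at 0 in all 6 libraries of a lane have no CV there and drop out. Between 0.1 and 0.3 TPM this left 785 of 1220 genes in Lane 1 and 1113 in Lane 4. At that level the median CV was 1.76 in Lane 1 and 1.17 in Lane 4. It was 0.698 and 0.371 between 1 and 3 TPM, and 0.109 and 0.0688 at 30 TPM or more. In Lane 1 these values lay close to, and above, what counting alone gives, 1.73, 0.631 and 0.0962. Between 0.1 and 0.3 TPM the mean Lane 1 count was 0.291 per library, so there the closeness carries little information. In Lane 4 counting alone gives 0.562, 0.177 and 0.0269, and was between 39% and 48.2% of the measured CV over the 6 levels. The variance of counts over their mean, which is 1 for counting noise, rose from 1.48 in Lane 1 to 5.61 in Lane 4 for genes of 1 to 3 TPM. In Lane 1 it was 1.43 between 0.1 and 0.3 TPM and 4.92 at 30 TPM or more, so that lane was above 1 as well. In the deepest lane the libraries of different numbers thus differed by more than counting error at every level examined.

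**Figure D4:**
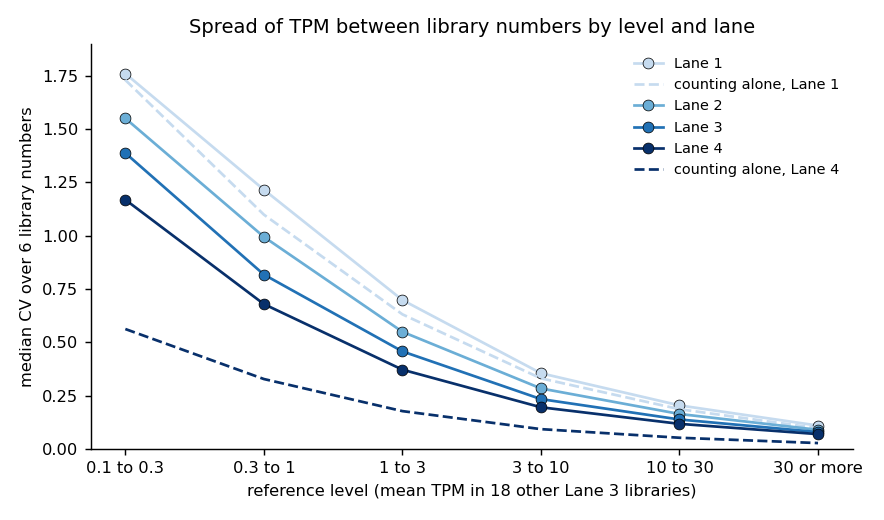
Median coefficient of variation of TPM over the 6 library numbers (y axis) by reference level (x axis, mean TPM in 18 other Lane 3 libraries) for Lanes 1 to 4. Dashed lines give the CV that counting alone would leave in Lanes 1 and 4. Lane 1 runs close above its dashed line, while Lane 4 lies further above its own at each level.

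The difference between numbers was carried from lane to lane. Between 0.1 and 0.3 TPM, 96.8% of genes counted in a Lane 1 library were also counted in the Lane 4 library of the same number, but 70.1% in Lane 4 libraries of other numbers, and between 0.3 and 1 TPM 99.4% and 92.3% (one-sided exact permutation p = 0.001389 each over the 720 orders of the numbers, the smallest possible, adjusted p = 0.00278 by the same test). From 3 TPM this measure separated the numbers no longer (99.97% and 99.96% between 3 and 10 TPM, exact permutation p = 0.04583, adjusted 0.06875). Agreement within 2-fold between Lane 1 and Lane 4 was also higher for the same number at every level, with 29.95% against 23.82% between 0.3 and 1 TPM, 61.3% against 52.5% between 1 and 3 and 88.9% against 83% between 3 and 10 (exact permutation p = 0.001389, adjusted 0.001389), and 6 of 6 numbers agreed best with their own. Chi-square values over degrees of freedom for the counts of a Lane 1 and a Lane 4 library, about 1 for counting noise alone, were 1.11, 1.23, 1.17, 1.10 and 1.09 for the same number in the 5 levels from 0.1 to 30 TPM, and 1.69, 1.91, 1.785, 1.805 and 1.799 for different numbers. Same-numbered libraries thus differed by little beyond counting noise at these levels, and different numbers by more.

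**Figure D5:**
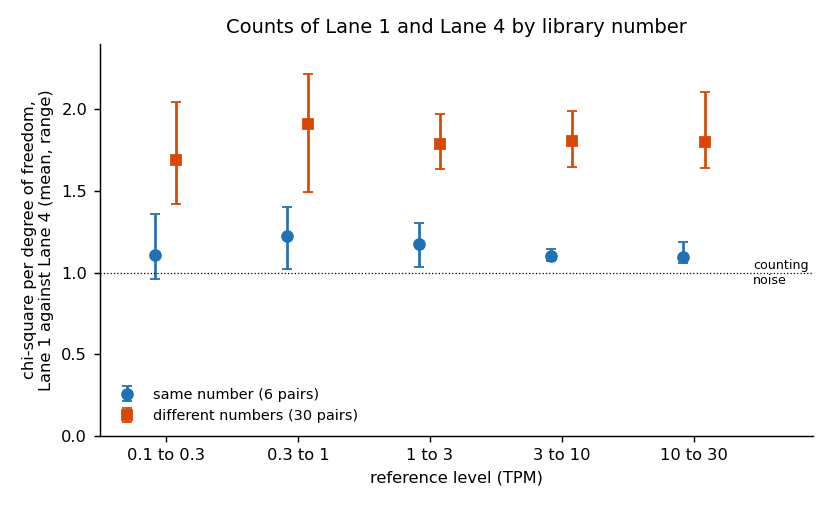
Chi-square per degree of freedom between the counts of a Lane 1 and a Lane 4 library (y axis) by reference level (x axis, TPM). Points are means and bars the lowest and highest pair, for the 6 pairs of the same number and the 30 pairs of different numbers. The ranges do not overlap at any level but the highest same-number value and the lowest value of different numbers come close below 1 TPM.

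The libraries in which a low gene was seen recurred from lane to lane. In Lane 4, 2056 genes (10.8%) were at 0 in 1 library and at 5 counts or more in another, and 1015 reached 10 counts or more against 0. They made up 61.6% of genes between 0.1 and 0.3 TPM, 39.4% between 0.3 and 1, 8.34% between 1 and 3 and 0.418% between 3 and 10, and 73 of the 199 lineage regulators were among them, 34 of them in the mesoderm, heart, muscle and blood list. Where such a gene was at 0 in Lane 4 of a number, it was counted in 1.69% ± 0.617 of cases in Lane 1, 2.47% ± 0.557 in Lane 2 and 3.71% ± 1.06 in Lane 3 of that number. Where it had 5 counts or more, the shares were 43.5% ± 1.68, 66.8% ± 1.74 and 83.8% ± 1.6 (SD, n = 6 numbers). The members of this set were chosen on Lane 4, and the shares were read in the other lanes.

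Genes new in Lane 4 showed the same tie to their number in the steps between. Of those new in a number, 56.9% ± 1.66 were counted in Lane 2 of that number and 50.1% ± 1.38 in Lane 2 of other numbers, a difference of 6.75 ± 2.01 percentage points. In Lane 3 the shares were 74.4% ± 1.68 and 61.1% ± 1.63, a difference of 13.3 ± 1.12 (6 of 6 numbers in both lanes, exact permutation p = 0.03125, the smallest possible). From Lane 1 the gain was 632.7 ± 37.4 genes in Lane 2 and 1100 ± 53.7 in Lane 3 (SD, n = 6), so each step of depth added genes in every number.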

How the data were processed

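Per the submitters' processing notes, the reads were handled with CASAVA 1.8.2 and Bowtie 0.12.8 and the genes estimated with RSEM 1.2.3, on hg19. The authors deposited 1 table of expected counts, which need not be whole, since reads that fit several genes are divided among them. The authors deposited a second table of TPM, scaled by transcript length and library total and rounded to 2 decimals, for the same 19084 genes and 179 libraries. Strand use in the counting is not stated, so overlapping genes on opposite strands, read-through models and near-identical copies are uncertain. No per-sample column was left unmapped (0 columns).

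From these tables the following was computed, in Python 3.11.15 (numpy 2.4.6, pandas 2.3.3, scipy 1.17.1, matplotlib 3.10.9) and R 4.3.3. A gene was called counted at an expected count of at least 1 and at 0 when the deposited value was exactly 0. Counts were rounded for edgeR 4.0.16 (filterByExpr, TMM, quasi-likelihood test, adjusted p by Benjamini-Hochberg, threshold 0.05) and for rarefaction, which used the analytic expectation. Differences within a number were tested by an exact sign-flip permutation over the 6 numbers, and same against different numbers by an exact permutation over the 720 orders. Expression levels came from the 18 Lane 3 libraries of other numbers. Scripts were tested on simulated data. Same-numbered libraries of Lanes 1 and 4 deviated together, with correlations of their deviations from the lane means of 0.359 to 0.437 in the 6 numbers, where no other pairing exceeded -0.0288, so the numbers were taken to pair the libraries.

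Gene classes were lists and name patterns, each gene going to the first class that held it. Named were 24 preselected regulators whatever their values; in each class the leading gene or genes at 0 in Lane 1 and counted in Lane 4; the genes called by edgeR; the 10 highest genes at 0 in all of Lane 1 and the 5 highest at 0 in all of Lane 4; and the 2 regulators nearest the middle of each level under 10 TPM. The libraries, gene lists and tests were chosen with earlier results of these data known. Alternatives were a replicate block, DESeq2 1.42.0, RLE size factors, no count filter, limma 3.58.1 on log2(TPM + 0.1), a count of at least 5, rounded counts, other lanes, rarefaction, levels from the 6 TruSeq libraries, tolerances of 1.5-fold and 3-fold, CPM, and leaving out each number. The measures of detection and of chi-square between numbers were chosen after seeing the data. The other libraries of the series enter only as reference. Some named genes are not reported here.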

Additional observations from a re-analysis of the deposited data

Results flagged for a closer look

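In 11 of 87 groups of 6 libraries examined, a single library stood far from the other 5. The rule marks about 1 group in 20 by chance for normally distributed values. Low counts with many values of 0 are not so distributed, so this rate does not tell how many groups chance would mark here. Lane4_38869 stood apart with 7 newly counted germ cell and trophoblast regulators, where the other 5 numbers had 3 or 4. The others were TPM values of single genes in Lane 4. Among lineage regulators, T stood at 0.3 TPM in Lane4_38873 and at no more than 0.06 elsewhere, TBX5 at 0.46 in Lane4_38873 and at no more than 0.08 elsewhere, and PITX1 at 0.33 in Lane4_38871 and at no more than 0.07 elsewhere. NKX2-5 at 0.47 TPM in Lane4_38871 and GATA6 at 0.34 TPM in Lane4_38874 were at 0 in the other 5 libraries, and so were HOXD11, a HOX gene of the limb, at 0.65 TPM and RPL10L at 0.79 TPM, both in Lane4_38871. GCM1 reached 0.5 TPM in Lane4_38872 against at most 0.13, PCDHB4 0.57 TPM in Lane4_38869 against 0.14 to 0.27, and the read-through model HSPE1-MOB4 7.43 TPM in Lane4_38873 against at most 0.16. Lane4_38871 carried 4 of the 11 and Lane4_38873 carried 3.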

How the results depend on the processing

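Of 92 alternative values that kept all 6 numbers, 71 stayed on the same side of their threshold or within their spread, 4 lost significance and 17 moved, and 0 reversed. The replicate block, with the library number as the paired factor, gave 13 called genes in place of 2, while DESeq2 and RLE size factors gave 2 each and the unfiltered fit and limma 3 each. The 21 genes at 0 throughout Lane 1 and counted throughout Lane 4 became 2 with a count of at least 5, 6 when Lane 3 stood for Lane 4 and 2 when Lane 2 stood for Lane 1, and the 1080 genes counted in at least 1 Lane 4 library became 591 with a count of at least 5 and 630 when Lane 2 stood for Lane 1. The gain of 1587 genes fell to 37.08 ± 37.73 under rarefaction (exact permutation p = 0.09375). By detection, the measure chosen after seeing the data, same and different numbers differed by 0.01817 percentage points at 3 to 10 TPM (exact permutation, adjusted p = 0.06875), 0.002921 at 10 to 30 TPM (0.3367) and 0 at 30 TPM or more (1). With TruSeq levels the median CVs of Lanes 1 and 4 were 1.697 and 1.276 at 0.1 to 0.3 TPM (1.702 in Lane 1 with CPM), 1.265 and 0.7815 at 0.3 to 1, 0.7744 and 0.4166 at 1 to 3, 0.3654 and 0.2 at 3 to 10, and 0.1165 and 0.0729 at 30 TPM or more.

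Leaving out each number in turn gave 0 to 1 called genes, 37 to 49 genes counted throughout Lane 4, where fewer libraries had to meet the rule, and a gain of 1566 to 1605 genes. The differences between Lanes 3 and 1 in the share within 2-fold were 18.2 to 19.1, 26.15 to 26.92, 21.82 to 22.83, 8.837 to 9.179, 1.423 to 1.574 and 0.1318 to 0.1565 percentage points from the lowest level to the highest. The exact permutation p was then 0.0625 for the gain and at each level, the smallest that 5 numbers allow, so it says nothing about stability. Depth limits what a 0 means: a single count was worth 0.808 TPM in Lane 1, and of genes between 0.1 and 1 TPM 34.55% were counted per Lane 1 library, so a 0 there does not show that a gene is absent.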

Other observations

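Of the 21 genes at 0 throughout Lane 1 and counted throughout Lane 4, 18 belonged to none of the classes. The genes in this paragraph were named after their values were seen, and their levels carry no test. FGF20, a fibroblast growth factor, had 2, 1, 8, 6, 7 and 3 counts in Lane4_38869 to Lane4_38874, and ANGPT2, a ligand of endothelial TIE2, had 2, 4.54, 8.81, 3.07, 2.15 and 4.02. CD37, a tetraspanin of lymphocytes, had 2, 5.63, 6, 2, 2 and 9 counts, and the kallikrein protease KLK1 had 10, 5, 1, 4, 8 and 7. SPRED3, a regulator of RAS signalling, stood at 1.28 ± 0.574 TPM in Lane 4 (SD, n = 6) with 8, 4, 4, 8, 13 and 6 counts, and was counted in all 6 libraries of Lane 2 and of Lane 3. SPOCD1, a germ line factor of piRNA-directed silencing, had the widest range of counts among these, with 13, 24, 2, 28, 8 and 4. Each of these 6 genes was also counted in all 6 TruSeq libraries and in 21 to 35 of the 89 other Lane 1 libraries, so they were seen outside Lane 4 as well.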
